A study of Drosophila melanogaster with 13 samples.

Results

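The 10 genes described here encode voltage-gated sodium channels, voltage-gated calcium channels, the sodium leak channel complex and the hyperpolarization-activated channel of Drosophila melanogaster, and they were followed across 4 groups of proboscis libraries. They were para, NaCP60E, tipE, cac, Ca-alpha1D, Ca-alpha1T, na, unc79, unc80 and Ih, 10 of the 13893 genes measured, and were found by their symbols in the deposited gene column. They carried 125 of the 30397 measured transcripts, of which para alone had 60. The proboscis is the mouthpart whose tip, the labellum, carries the taste hairs, and the series asked how dietary sugar changes gene expression there.

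In the first experiment, flies labelled parental spent 7 days on cornmeal food with added sugar (sugar diet, n = 2) or on cornmeal food alone (control diet, n = 2), with 200 proboscises pooled in each library. The second experiment used only flies fed added sugar for 7 days, each with the Gr5a-GAL4 driver, which drives expression in sweet-sensing taste neurons. The driver was combined with UAS-OGT-RNAi (OGT RNAi, n = 5) or with a wild-type chromosome (Gal4 control, n = 4), with 20 proboscises pooled in each library. The driver acts in only a small part of the cells pooled, and a control with the UAS transgene but no driver was not analysed here. Both experiments used Ovation kits, but of different kinds, so kit, input and genotype cannot be told apart between the experiments. The labels call the libraries biological replicates.

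Total estimated counts ran from 5632598 to 13884994 per library, so that 3 counts, the limit that a count of 0 allows, were worth 0.216 to 0.533 CPM (counts scaled to a common library total). sxc, which encodes OGT, stood at 138, 170, 134, 135 and 136 CPM in OGT RNAi libraries 1 to 5 and at 163, 142, 170 and 174 CPM in Gal4 control libraries 1 to 4, and was not called (log2 change -0.19, SE 0.086, edgeR adjusted p = 0.376). Counts from the Gal4 sequence were 0 in all 4 diet libraries and 11 to 41 in the second experiment. All 10 neuron markers were tested in both experiments, and taste receptor genes such as Ir76b and Gr64b were detected. In whole proboscises fewer cells of a type and less RNA per cell cannot be told apart.

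para, the fly's main voltage-gated sodium channel, carries the rising phase of the action potential, and tipE is a membrane protein that raises its current. NaCP60E is a second sodium channel homologue, whose channel also passes calcium. cac is the presynaptic calcium channel that triggers transmitter release, Ca-alpha1D is the L-type channel of neurons and muscle, and Ca-alpha1T is the low-voltage-activated T-type channel. na is the pore of a sodium leak channel that sets the resting potential and works with the large proteins unc79 and unc80. Ih opens on hyperpolarization, binds cyclic nucleotides and shapes rhythmic firing.

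Levels of different genes were compared as TPM, a unit scaled to a common total that takes transcript length into account. In control diet libraries Ih was highest at 48.6 ± 4.30 TPM (SD, n = 2). para followed at 27.4 ± 1.69 TPM, NaCP60E at 26.9 ± 2.89 TPM and Ca-alpha1D at 26.3 ± 2.44 TPM, and the ranges of these 3 neighbours overlapped. cac at 12.7 ± 1.20 TPM and Ca-alpha1T at 11.5 ± 1.68 TPM also overlapped each other, and lay apart from the genes above and below. tipE at 4.89 ± 1.42 TPM overlapped na at 3.95 ± 0.0229 TPM, whereas unc79 lay below both at 2.78 ± 0.772 TPM. unc80 was last at 0.0989 ± 0.0369 TPM.

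On the sugar diet Ih was again highest at 38.4 ± 8.08 TPM (n = 2), now followed by Ca-alpha1D at 25.7 ± 0.398 TPM, apart from both neighbours. Over all genes the median log2 change from control to sugar diet was -0.27 on log2(TPM + 0.5). TPM values are therefore compared here within a diet, and the diets are compared below in CPM. para at 21.8 ± 4.39 TPM overlapped NaCP60E at 18.1 ± 3.60 TPM. cac stood at 11.2 ± 0.841 TPM, Ca-alpha1T at 8.36 ± 0.766 TPM and tipE at 4.24 ± 0.0580 TPM, each apart from the next. na at 2.93 ± 1.31 TPM overlapped unc79 at 1.80 ± 0.353 TPM, and unc80 was at 0.132 ± 0.125 TPM.

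In Gal4 control libraries (n = 4) Ih stood at 46.0 ± 2.93 TPM, apart from the next gene. NaCP60E at 15.7 ± 1.61 TPM overlapped Ca-alpha1D at 13.1 ± 2.06 TPM, which overlapped para at 9.17 ± 1.63 TPM. tipE at 5.77 ± 0.329 TPM overlapped cac at 5.71 ± 1.37 TPM, and Ca-alpha1T lay below at 3.39 ± 0.403 TPM. unc79 at 2.53 ± 0.327 TPM overlapped na at 2.25 ± 0.338 TPM, and unc80 was at 0.101 ± 0.0326 TPM.

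The OGT RNAi libraries (n = 5) held the 10 genes in the same order of mean TPM as the Gal4 control libraries. Ih was at 44.1 ± 6.48 TPM, apart from the rest, and unc80 at 0.130 ± 0.0719 TPM, also apart. The ranges of all neighbours between them overlapped, from NaCP60E at 14.01 ± 2.38 TPM to na at 1.99 ± 0.380 TPM. Against all genes with a TPM above 0, Ih stood at percentile 86.3 in the diet libraries and 83.004 in the second experiment, and unc80 at 7.52 and 14.7.

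**Figure D1:**
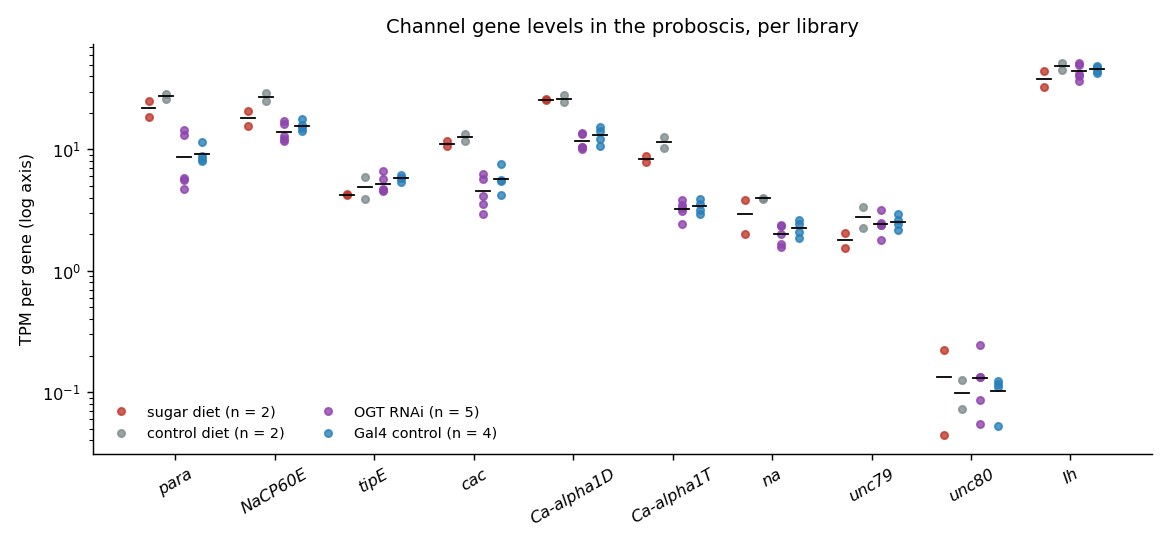
Level of each gene in TPM on a log axis, with 1 point per library, colours for the 4 groups and black bars for group means. Ih is highest in every group, unc80 is lowest, and para spreads from 4.67 to 14.4 TPM among the OGT RNAi libraries.

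The first comparison asked which of these genes differed between the sugar and control diets. Of the 10 genes, 9 passed the filter on low counts and 1 was called at an edgeR adjusted p under 0.05, against 6.47% of the 8825 genes tested. The called gene was NaCP60E, which was lower on the sugar diet. That count was 0 higher and 1 lower, against 3.12% higher and 3.35% lower of all genes tested (275 and 296 genes). This split depended on the scaling, since limma on log2(TPM + 0.5) called 51 genes higher and 440 lower. At an unadjusted p under 0.05 it was 2 of 9, NaCP60E and Ca-alpha1D, against 17.7% of all genes tested. The 9 log2 changes had a median of -0.00016, against 0.0037 over all genes tested, and ran from -0.40 to 0.24. The groups did not overlap for 4 of the 9 genes, against 47.5% of all genes tested, a share near the background.

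NaCP60E stood at 167 and 178 CPM in sugar diet libraries 1 and 2 and at 204 and 218 CPM in control diet libraries 1 and 2. Both sugar libraries lay below both control libraries. The log2 change was -0.29 (SE 0.081, edgeR adjusted p = 0.0409). The authors' deposited table also lists NaCP60E lower, with b = -0.212 on the natural-log scale, SE 0.0601 and q = 0.0123. With DESeq2 the log2 change was -0.29 (adjusted p = 0.153), and in 1 edgeR fit of all 4 groups it was -0.27 (adjusted p = 0.381). With limma on log2(TPM + 0.5) it was -0.57 (adjusted p = 0.131), where the median of all genes was -0.27. It was -0.34 without control diet library 1 and -0.24 without control diet library 2, and NaCP60E was called in neither fit. Without sugar diet library 1 or 2 it was -0.25 or -0.33. The sign held in these fits, but the call depended on single libraries and on the tool. NaCP60E (2R:24891614-24921677, plus strand, BDGP6) shares 173 exonic bases with pain on the opposite strand, and no source used here states that counting used strand. tipE shares 777 exonic bases with CG18675 on the same strand, Ca-alpha1D 248 with asRNA:CR43806 and unc79 69 with Polr2M, both on the opposite strand, so reads there could be split between the genes.

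para stood at 230 and 248 CPM on the sugar diet and at 237 and 242 CPM on the control diet. The groups overlapped and the log2 change was -0.00016 (SE 0.079, edgeR adjusted p = 1.00). tipE, its auxiliary subunit, stood at 13.05 and 11.03 CPM against 10.01 and 12.96 CPM, also overlapping (log2 change 0.06, SE 0.21).

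Ca-alpha1D stood at 188 and 154 CPM on the sugar diet and at 139 and 149 CPM on the control diet. Sugar diet library 1 was far above the other 3 libraries. The log2 change of 0.24 (SE 0.096) was not called, with an edgeR adjusted p of 0.177. On the TPM scale it was -0.03, where the median of all genes was -0.27, so that it lay 0.24 above that median. Without sugar diet library 2 it was 0.38 and was called (edgeR adjusted p = 0.00024), and without sugar diet library 1 it was 0.09 (edgeR adjusted p = 0.640). cac stood at 91.1 and 81.7 CPM against 78.4 and 83.7 CPM, with overlapping groups (log2 change 0.09, SE 0.096). Ca-alpha1T stood at 83.6 and 76.9 CPM against 83.9 and 97.1 CPM, where the highest sugar library all but met the lowest control library (log2 change -0.18, SE 0.10, edgeR adjusted p = 0.396).

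For the leak channel, unc79 stood at 10.9 and 11.5 CPM on the sugar diet and at 12.4 and 17.1 CPM on the control diet. Both sugar libraries were lower, but the log2 change of -0.40 (SE 0.21) was not called (edgeR adjusted p = 0.339). It was -0.14 without control diet library 2 and -0.60 without control diet library 1. na, the pore, stood at 13.8 and 21.4 CPM against 20.8 and 19.6 CPM, with overlapping groups (log2 change -0.17, SE 0.19). unc80 had 2 and 10 estimated counts on the sugar diet and 4 and 7 on the control diet, close to the floor of 3 counts, and was not tested. Ih stood at 147 and 154 CPM against 145 and 156 CPM, and its log2 change was 0.0015 (SE 0.083).

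**Figure D2:**
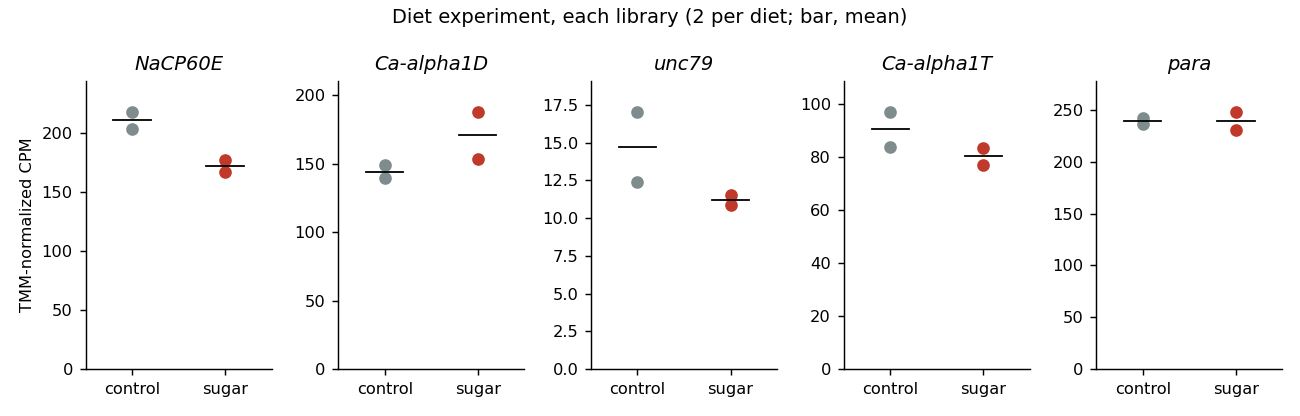
TMM-normalized CPM of 5 genes in each diet library, 2 points per diet with bars for the means and axes from 0. NaCP60E lies lower in both sugar libraries (167 and 178 CPM) than in both control libraries (204 and 218 CPM), while the para libraries overlap.

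Cell type markers moved with diet in the same libraries. Over all genes tested, 3.12% were called higher and 3.35% lower on the sugar diet. Of the muscle markers, 5 of the 10 tested were higher on the sugar diet and none lower, and their summed level was 32282 to 37898 CPM against 26262 to 26651 CPM. Tm1, a tropomyosin, rose by 0.47 on the log2 scale (SE 0.076), and Act57B, an actin, by 0.46 (SE 0.089). Of the fat body markers 3 of the 4 tested were lower, with a sum of 1376 to 1426 CPM against 1799 to 1871 CPM, while Lsp2 and Fbp1 did not pass the filter. Of the neuron markers 1 of 10 was called, cpx, a regulator of vesicle fusion, which fell by 0.47 (SE 0.089, edgeR adjusted p = 0.0035), and the sum was 919 to 964 CPM against 923 to 966 CPM. Of the glia markers 2 of 6 tested were higher, nrv2 and repo, with a sum of 1198 to 1218 CPM against 1024 to 1106 CPM. None of the 10 taste tissue markers tested was called, and their sum was 594 to 639 CPM against 695 to 730 CPM. Many of these marker calls were lost in other fits. Among the 4 muscle markers with the smallest p, Act57B, Mlc2 and bt were not called without either control diet library (edgeR adjusted p of 0.164 to 0.333), nor was Tm1 without control diet library 1 (0.0963). On the log2(TPM + 0.5) scale none of the 4 was called, and the changes were 0.21 for Tm1 and 0.18 for Act57B. The median of all genes on that scale was -0.27, so these changes are not on the same footing as those in CPM. repo was not called with DESeq2 (adjusted p = 0.0976), in 1 fit of all 4 groups (0.163) or without control diet library 2 (log2 change 0.38, 0.413). cpx was not called without control diet library 2 (edgeR adjusted p = 0.138) or in 1 fit of all 4 groups (0.492). Of the fat body markers, apolpp and Apoltp, both lipid carriers, were not called without either control diet library (edgeR adjusted p of 0.131 to 0.395). In the other direction, the taste tissue markers ppk28, a water receptor channel (log2 change -1.37, SE 0.46), and Ir76b, a taste coreceptor (-0.38, SE 0.15), were called in some fits. ppk28 was called without the filter (edgeR adjusted p = 0.0431), with limma on TPM at both pseudocounts (0.0074 and 0.0091) and without sugar diet library 2 (0.0361), and Ir76b without sugar diet library 1 (0.0029). The part of these markers in the changes of NaCP60E and Ca-alpha1D was not tested.

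Among partner genes, all changes called on the sugar diet were upward, against 3.12% higher and 3.35% lower of all genes tested. That background split depended on the scaling, with 51 genes higher and 440 lower in limma on log2(TPM + 0.5). Of the calcium channel partners 1 of 4 was called, Ca-beta, the cytoplasmic beta subunit, which rose from 89.9 ± 4.71 CPM in control libraries to 118 ± 1.54 CPM in sugar libraries (n = 2 per diet; log2 change 0.39, SE 0.089, edgeR adjusted p = 0.0113). Of the calcium handling genes 2 of 8 were called. RyR, the release channel of the endoplasmic and sarcoplasmic reticulum, stood at 458 ± 26.5 and 325 ± 7.92 CPM (log2 change 0.49, SE 0.077, edgeR adjusted p = 0.00064). Calx, a sodium-calcium exchanger, stood at 261 ± 24.7 and 189 ± 6.34 CPM (log2 change 0.46, SE 0.085, edgeR adjusted p = 0.0026).

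Of the 4 sodium pump genes 1 was called, nrv2, a beta subunit that is also in the list of glia markers, at 193 ± 34.2 and 127 ± 6.21 CPM (log2 change 0.61, SE 0.11, edgeR adjusted p = 0.0022). Of the 4 tested regulators of para RNA 1 was called, Adar, the enzyme that edits adenosines in neuronal transcripts, at 299 ± 32.4 and 207 ± 35.7 CPM (log2 change 0.53, SE 0.11, edgeR adjusted p = 0.0153). Mid1, needed for the na channel to reach the membrane, was not called (log2 change 0.39, SE 0.13, edgeR adjusted p = 0.0928). It was called without the filter (edgeR adjusted p = 0.0367) and without sugar diet library 2 (log2 change 0.54, edgeR adjusted p = 0.0015), and was 0.23 without sugar diet library 1. None of the 4 tipE homologues (Teh4 -0.43, Teh1 -0.13) and neither of the cyclic nucleotide gated relatives of Ih (CngA -0.38, Cngl -0.06) was called. Without control diet library 1 the calls of Ca-beta, Adar, Calx and RyR were lost, at edgeR adjusted p of 0.295, 0.243, 0.131 and 0.0663. Without control diet library 2 those of Ca-beta, nrv2 and Calx were lost, at 0.0970, 0.0640 and 0.0522, and limma on the TPM scale called none of the 5 genes. DESeq2 did not call Ca-beta (adjusted p = 0.0690), and 1 fit of all 4 groups called neither it (adjusted p = 0.127) nor RyR (0.0735) nor Calx (0.0795).

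The second comparison asked which of the genes differed with OGT RNAi in Gr5a-GAL4 cells. All 10 genes passed the filter and 0 were called, against 1.27% of the 9399 genes tested. At an unadjusted p under 0.05 the count was 0 of 10, against 12.9% of all genes tested, and DESeq2 also called 0, against 2.39% of 10545 genes. The groups overlapped for all 10 genes, whereas they did not for 5.54% of all genes tested. The median log2 change was -0.07, against 0.0034 over all genes tested.

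**Figure D3:**
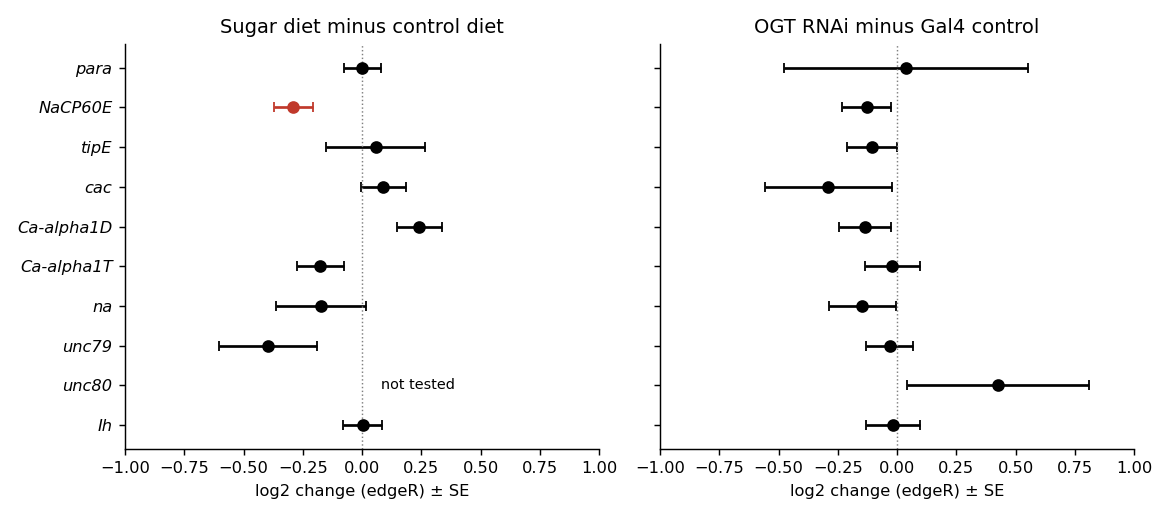
Log2 change and its SE from edgeR for the 10 genes, sugar minus control diet on the left and OGT RNAi minus Gal4 control on the right. NaCP60E in the diet comparison, in red, is the only gene called, and the SE of para widens from 0.079 to 0.51.

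para varied most among the 9 channel genes other than unc80. It stood at 137, 161, 46.4, 50.1 and 37.8 CPM in OGT RNAi libraries 1 to 5 and at 68.1, 68.9, 78.5 and 122 CPM in Gal4 control libraries 1 to 4. OGT RNAi libraries 1 and 2 and Gal4 control library 4 were high, and the highest of the 9 libraries was 4.25 times the lowest, against 2.62 times for cac and 1.64 times or less for the rest. The log2 change was 0.04 (SE 0.51, edgeR adjusted p = 0.985). It ran from -0.31 without OGT RNAi library 2 to 0.27 without Gal4 control library 4, so that its sign depended on single libraries. tipE varied little, at 16.7, 19.5, 14.4, 14.7 and 14 CPM against 16.6, 15.7, 17.8 and 18.2 CPM.

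NaCP60E stood at 167, 178, 142, 140 and 122 CPM in OGT RNAi libraries and at 183, 145, 159 and 165 CPM in Gal4 control libraries. The groups overlapped, and the log2 change was -0.13 (SE 0.10, edgeR adjusted p = 0.672). Whether this differed from the diet change was not tested. cac stood at 48.5, 53.4, 34.6, 31.8 and 23.6 CPM against 44.6, 34.1, 47.4 and 61.7 CPM, high in the same 3 libraries as para (log2 change -0.29, SE 0.27, edgeR adjusted p = 0.724). It ran from -0.44 without OGT RNAi library 2 to -0.13 without Gal4 control library 4. Ca-alpha1D stood at 93.8, 98.6, 75.5, 80.0 and 74.2 CPM against 107, 85.6, 77.9 and 101 CPM (log2 change -0.14, SE 0.11). Ca-alpha1T stood at 36.1, 40.6, 36.1, 35.1 and 25.5 CPM against 39.2, 32.0, 32.1 and 37.2 CPM (log2 change -0.02, SE 0.12).

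The leak channel pore na stood at 12.8, 15.6, 11.3, 16.4 and 10.2 CPM against 15.4, 16.7, 12.4 and 13.5 CPM (log2 change -0.15, SE 0.14). unc79 stood at 19.0, 15.4, 16.1, 13.9 and 15.7 CPM against 18.4, 16.4, 14.95 and 16.1 CPM (log2 change -0.03, SE 0.10). unc80 had 28, 13, 15, 4 and 10 estimated counts against 13, 11, 5 and 12, too few for its level to be read closely (log2 change 0.43, SE 0.38). Without OGT RNAi library 1 the change was 0.08, and with limma on log2(TPM + 0.5) it was 0.06. Ih stood at 164, 175, 129, 130 and 117 CPM against 146, 128, 146 and 159 CPM (log2 change -0.02, SE 0.11). In each of these genes the values of the groups lay within or across each other, and a p above the threshold does not show that the groups were alike.

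None of the partner genes was called with OGT RNAi, and neither was any marker gene. The fat body marker Lsp1beta, a larval storage protein (log2 change 0.55, SE 0.23, edgeR adjusted p = 0.348), was called without OGT RNAi library 5 (0.70, edgeR adjusted p = 0.0273). It was also called with the replicate number as a block, a fit that likewise left out that library (0.70, edgeR adjusted p = 0.0116). Among the partner genes stj, an alpha2-delta subunit of calcium channels, had a log2 change of -0.49 (SE 0.21, edgeR adjusted p = 0.357). Calx had one of -0.33 (SE 0.11, edgeR adjusted p = 0.178) and Teh2, a tipE homologue, of -0.27 (SE 0.14, edgeR adjusted p = 0.444). The log2 change was -0.05 for Mid1, -0.19 for pum, a translational repressor that acts on para RNA, -0.18 for nrv2 and -0.07 for CngA.

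The variation of para was widest in the transcript with the longest 3′ end. The 60 para transcripts (X:16455027-16533096, minus strand, BDGP6) end at 3 annotated positions. The 1 transcript para-RBG ends at 16455027, 3840 bases beyond the pair para-RAC and para-RAK, which end at 16458867. These run 4736 bases beyond the shared end of the other 57 at 16463603. The split was chosen after the values were seen. The annotated spans of the 3 forms overlap, so the counts of each form depend on how reads were divided among the transcripts. The tests of the forms took these estimated counts as they stood, without the error of that division.

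In the second experiment the longest form stood at 92.1, 117, 10.9, 15.01 and 12.8 CPM in OGT RNAi libraries 1 to 5 and at 19.9, 30.8, 36.5 and 83.4 CPM in Gal4 control libraries 1 to 4. The same 3 libraries were high, and within the OGT RNAi group the highest was 10.7 times the lowest. The pair with the middle end stood at 26.6, 31.0, 14.7, 17.3 and 9.53 CPM against 20.4, 17.3, 22.0 and 22.6 CPM, highest in the same 3 libraries, with a range of 3.25 times. The 57 with the shortest end stood at 18.1, 13.1, 20.8, 17.8 and 15.4 CPM against 27.7, 20.8, 20.1 and 15.8 CPM, with OGT RNAi library 2 and Gal4 control library 4 among the 3 lowest and a range of 2.11 times. The transcripts with the 2 shorter ends together stood at 44.7, 44.1, 35.5, 35.1 and 25.0 CPM against 48.1, 38.1, 42.0 and 38.5 CPM, a range of 1.93 times over the 9 libraries. Their log2 change was -0.18 (SE 0.15, edgeR adjusted p = 0.683), against 0.22 (SE 0.89, edgeR adjusted p = 0.953) for the longest form.

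**Figure D4:**
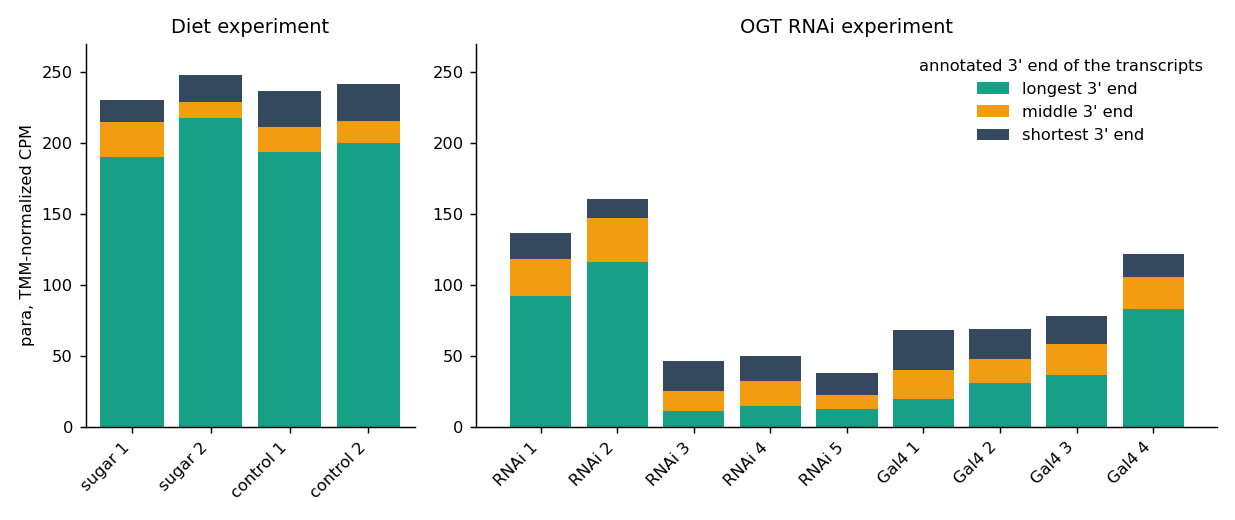
TMM-normalized CPM of para in each library, stacked by the annotated 3′ end of its transcripts, with the diet experiment on the left and the OGT RNAi experiment on the right. The longest form runs from 10.9 to 117 CPM in the second experiment, and the 2 shorter forms together from 25.0 to 48.1 CPM.

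In the diet libraries the longest form held most of para, 82.0 to 87.7% of its counts, against 23.5 to 72.6% in the second experiment. It stood at 190 and 218 CPM on the sugar diet and at 194 and 200 CPM on the control diet (log2 change 0.05, SE 0.085). The pair with the middle end stood at 24.9 and 11.8 CPM on the sugar diet and at 17.0 and 15.7 CPM on the control diet (log2 change 0.14, SE 0.29). The transcripts with the 2 shorter ends together were not called (log2 change -0.27, SE 0.14, edgeR adjusted p = 0.353). The form with the shortest end stood at 15 and 18.8 CPM on the sugar diet and at 25.6 and 25.9 CPM on the control diet, both sugar libraries being lower (log2 change -0.60, SE 0.16, edgeR adjusted p = 0.0337). This p does not cover the division of reads among overlapping transcripts. Among the 4 fits that each left out 1 library, the call held only in the one without sugar diet library 2. Without sugar diet library 1 the edgeR adjusted p was 0.128, and without control diet library 1 or 2 it was 0.213 or 0.217.

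Some other genes were also highest in the 3 libraries in which para was high, and others were not. Of the 10 neuron markers, 4 had their 3 highest values in those libraries, namely Syt1, brp, fne and Appl. elav, nSyb, Csp, cpx, Rab3 and Syx1A did not, and Csp had its 3 highest values in OGT RNAi libraries 1, 2 and 3. The share of all genes with this pattern was not counted. fne, an RNA-binding protein of the ELAV family, stood at 36.8, 49.1, 12.0, 14.9 and 12.0 CPM in OGT RNAi libraries and at 15.5, 15.7, 25.0 and 35.3 CPM in Gal4 control libraries. elav, the pan-neuronal member of that family, varied by 1.47 times. Cam, the calmodulin gene, stood at 435, 490, 194, 270 and 232 CPM against 272, 225, 383 and 539 CPM. fne, elav and Cam were chosen after their values were seen. The summed level of all 10 neuron markers was 615 to 986 CPM with OGT RNAi and 659 to 1006 CPM in the controls.

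Genes with long transcripts also shifted between these libraries. Over the 209 tested genes with a mean effective length of 8000 bases or more, the median log2 deviation from the mean of the libraries was 0.07 and 0.12 in OGT RNAi libraries 1 and 2, and -0.10, -0.13 and -0.18 in libraries 3 to 5. In Gal4 control libraries 1 to 4 it was 0.15, -0.05, -0.01 and 0.14. Gal4 control library 1, at 0.15 for long genes, stood at 68.1 CPM for para. The part of neuron number, RNA quality and transcript length in the variation of para was not tested.

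Most of the 125 transcripts were little used. Over 3 counts in every library were reached by 36 in the diet experiment and by 29 in the second. In each experiment 46 passed the filter for testing. Of these edgeR called 0, against 0% of 17390 transcripts tested for diet and 0.00521% of 19193 for OGT RNAi. On simulated data this transcript test had little power, above all for diet, so a count of 0 says little about single transcripts. Over all transcripts tested, 8.38% for diet and 7.23% for OGT RNAi had an unadjusted edgeR p under 0.05. The transcripts of the channel genes were not counted at that limit. Of the 47 transcripts of these genes for diet and the 45 for OGT RNAi that had a q-value in the authors' deposited tables, 0 were below 0.05.

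DESeq2 called 3 of 51 transcripts of these genes on the sugar diet, all higher, against 4.79% of 19526 transcripts in either direction and 2.15% higher. The either-direction share is near that of the channel genes. Ca-alpha1T-RE had 32.9 and 28.1 estimated counts on the sugar diet, and cac-RE had 16.8 and 22.9, and both were at or next to 0 on the control diet. A Ca-alpha1D transcript that is absent from the annotation used here (FBtr0090003) had 217 and 80.6 estimated counts on the sugar diet and 3.24 and 0 on the control diet. Of the 10 measured Ca-alpha1D transcripts, 5 are in that annotation. All flies of the second experiment were fed added sugar, and there these transcripts were at or next to 0 in some libraries. Ca-alpha1T-RE ran from 0 to 29.2 estimated counts per library, cac-RE from 0 to 22.1 and FBtr0090003 from 0.00047 to 378. Kit, input and genotype also differ there. Estimated counts of single transcripts depend on how kallisto divided reads among the transcripts of a gene.

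The leading transcript of a gene was not always the same in both experiments. NaCP60E-RJ, whose 3′ end lies 1412 bases beyond that of the other 9, held 37.1 to 38.7% of the gene's TPM on the sugar diet and 27.3 to 32.3% on the control diet. In the second experiment it held 46.6 to 49.9% with OGT RNAi and 45.1 to 51.3% in the controls. Ca-alpha1T-RF, ending 2093 bases beyond the other 4, held 52.7 to 58.6% in the diet libraries and 60.8 to 83.9% in the second experiment. Ca-alpha1D-RJ held 0.0495 to 22.3% in the diet libraries and 38.4 to 59.4% in the second, where it led. In the diet libraries Ca-alpha1D-RG led by mean TPM, with 13.1 to 29.2%.

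Ih-RM held 26.1 to 28.4% of Ih in the diet libraries and 12.4 to 17.1% in the second experiment. Ih-RJ was at or next to 0 in all 4 diet libraries and led in the second experiment with 17.2 to 34.1%. cac-RC led in both, with 32.2 to 46.4% in the diet libraries and 20.1 to 49.0% in the others. na-RF held 96.2 to 100% and 63.0 to 100%, and tipE-RB 42.3 to 100% and 47.9 to 58.8%. unc79 was led by unc79-RC in the diet libraries (23.5 to 54.1%) and by unc79-RE in the second experiment (32.6 to 89.6%), and unc80-RD led unc80 with too few counts for a share to be read. Kit, input and genotype all differ between the experiments and cannot be told apart as sources of these differences.

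**Figure D5:**
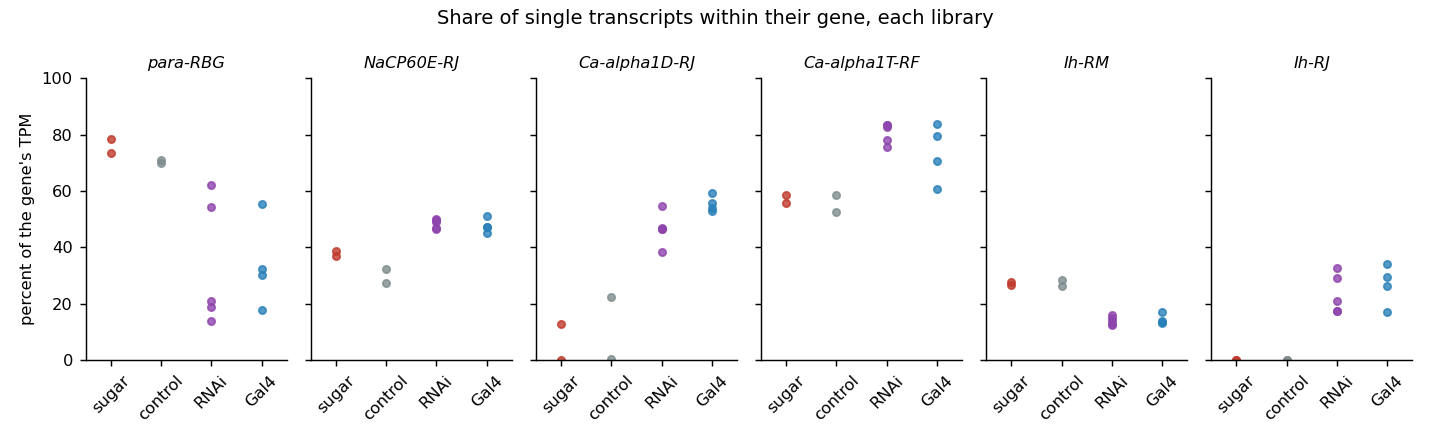
Percent of its gene's TPM held by each of 6 transcripts, with 1 point per library in the 4 groups. para-RBG spreads from 13.9 to 62.1% among OGT RNAi libraries, while NaCP60E-RJ stays within 45.1 to 51.3% across the second experiment.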

How the data were processed

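RNA of pooled proboscises was sequenced in 13 libraries. Per the submitters' processing notes, reads were trimmed with Trimmomatic 0.22, quantified with kallisto 0.43 and tested with sleuth; the genome build, annotation release and strand setting are not given in the sources used here. The deposited tables hold the authors' estimated counts per transcript, unnormalized, of which 54.1% were not whole, together with the authors' TPM and the effective length. The authors' deposited result tables give the effect b on the natural log scale, its standard error as a score without fixed range, and p-values and q-values.

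Estimated counts were summed per gene and rounded to whole numbers. A set of 52 targets without a gene was left out, holding 0.0420 to 0.0569% of the estimated counts. Low genes were removed by filterByExpr at a minimum count of 10 and a minimum total of 15, and TMM (trimmed mean of M-values) gave the scaling. Each experiment was tested on its own in edgeR 4.0.16 under R 4.3.3 with glmQLFTest, two-sided, after a robust quasi-likelihood fit. P-values were adjusted by Benjamini-Hochberg over all features tested and called under 0.05. The SE is the log2 change divided by the square root of F. Levels are TMM-normalized CPM, mean ± SD. TPM of a gene is the sum over its transcripts.

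Alternatives were other size factors, no filter, DESeq2 1.42.0, limma 3.58.1 on log2(TPM + 0.5) and log2(TPM + 0.1), a replicate block, 1 fit of all 4 groups, length-corrected counts, and leaving out each library. Splitting para by 3′ end was added after seeing the data. Members and gene lists were chosen with earlier results of these data known. All 10 genes and sxc were named. Of each other list up to 4 called genes with the smallest adjusted p were eligible, or where none was called the 2 with the smallest p. Positions are from the BDGP6 annotation, where 9422 of 9466 genes had the same position as in the authors' tables. Of the 10 genes, 9 are in the authors' gene tables. The test was checked on simulated data. Counting limits cover counting error only, as no molecular identifiers are described.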

Additional observations from a re-analysis of the deposited data

Results flagged for a closer look

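One value lay far from the rest of its group. sxc, the OGT gene, reached 170 CPM in OGT RNAi library 2, where the nearest other library of that group stood at 138 CPM, and this gap was 0.883 of the group's whole range. This was 1 of 30 groups examined, all of the second experiment, and chance flags about 1 in 20. OGT RNAi library 2 also had the highest para level of the second experiment, at 161 CPM. No group of the 10 channel genes in the second experiment had such a value. The diet groups, with n = 2 each, were not examined.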

How the results depend on the processing

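Of the 10 channel genes, 1 was called for diet. This count was 0 with DESeq2, with limma on TPM at either pseudocount and in 1 fit of all 4 groups, and ran from 0 to 2 when single libraries were left out. For OGT RNAi it was 0 throughout. Over all genes, the diet count of 571 became 314 with DESeq2 and 300 in 1 fit of all 4 groups, and ran from 195 to 938 with a library left out. The OGT RNAi count of 119 became 252 with DESeq2 and ran from 42 to 264 with a library left out. Over all transcripts, diet calls went from 0 to 935 with DESeq2 (3 of them of the channel genes) and 499 in 1 fit of all 4 groups. OGT RNAi transcript calls went from 1 to 265 with DESeq2, 10 and 12 with limma on TPM, and 6 in 1 fit of all 4 groups, and ran from 1 to 15 with a library left out. Diet calls split into 275 higher and 296 lower, but into 51 and 440 with limma on log2(TPM + 0.5). The cause of these differences was not tested.

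Small log2 changes turned sign. For diet, para was 0.0022 with RLE size factors and 0.022 in 1 fit of all 4 groups, and Ih was -0.0081 without a filter, -0.00048 with DESeq2 and -0.067 with length-corrected counts. In TPM, with all genes at a median of -0.27 (pseudocount 0.5) or -0.28 (0.1), Ca-alpha1D was -0.026 at both, tipE -0.16 and -0.17, cac -0.17 and -0.18, and Ih -0.35 at both. For OGT RNAi, para was -0.20 and -0.22 on the TPM scale, -0.054 with length-corrected counts and -0.18 without its longest form, and Cngl was -0.00025 on the TPM scale (0.5).

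With single libraries left out, diet changes ran from -0.055 to 0.053 for para, -0.050 to 0.14 for its longest, -0.46 to 0.61 for its middle form, -0.11 to 0.26 for tipE, -0.54 to 0.090 for na, -0.052 to 0.056 for Ih, -0.16 to 0.015 for Cngl and -0.33 to 0.10 for Teh1. OGT RNAi changes ran from -0.31 to 0.27 for para, -0.35 to 0.78 for its longest and -0.27 to 0.13 for its middle form, -0.083 to 0.069 for Ca-alpha1T, -0.10 to 0.027 for unc79, -0.10 to 0.042 for Ih, -0.13 to 0.0074 for CngA, -0.090 to 0.17 for Cngl and -0.20 to 0.17 for Mid1.

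Deviations of same-numbered libraries correlated at 0.0048 for diet and at -0.25 to 0.16 for OGT RNAi. With 2 libraries per diet, replicates 1 and 2 must give the same value, so the diet figure cannot decide whether the numbers pair the samples. With the replicate number as a block, 1 channel gene was called for diet (728 genes in all) and 0 for OGT RNAi (88 in all, and 0 transcripts). The block used only replicate numbers found in both groups, so for OGT RNAi it also left out OGT RNAi library 5. Under the block the OGT RNAi changes of Mid1, Ih and Ca-alpha1T were 0.081, 0.034 and 0.072. Without OGT RNAi library 5 and with no block they were 0.062, 0.042 and 0.069, so the part of the block itself was not tested. For diet, Mid1 passed the threshold under the block (edgeR adjusted p = 0.0467). Lsp1beta passed it for OGT RNAi (0.70, edgeR adjusted p = 0.0116). With 2 libraries per diet and estimated counts divided among the transcripts of a gene, values of single transcripts and of unc80 are imprecise.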
